A study of Mus musculus with 5 samples.

Results

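The genes of DNA replication and S phase were examined in mouse embryonic stem (ES) cells in which the chromatin protein gene Satb1 was switched on. They comprise 39 named genes out of 19938 genes with a single symbol on the array. The 39 were chosen by function, with earlier results of these data known. All 39 had at least 1 probe set, and a gene with several was read from the one with the highest mean. RNA was measured on 5 microarrays of ES cells with a tetO-Satb1 transgene, which is a Satb1 copy behind a promoter that responds to doxycycline (DOX). The uninduced group (2 arrays, titled #1 and #2) carried the transgene but received no DOX, and the induced group (3 arrays, titled #1, #2 and #3) received DOX for 24 h. Both groups grew in medium with LIF, the cytokine that keeps ES cells undifferentiated, and 15% serum, and RNA was prepared 48 h after passaging. The labels give no clone or strain and no sex of the cells, and they do not say whether arrays came from separate cultures, so the p-values below measure the spread between arrays, which may be technical. No DOX-treated cells without the transgene were among these samples, and therefore DOX itself and Satb1 cannot be told apart.

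Before S phase, the origin recognition complex, with CDC6 and CDT1, loads rings of MCM2 to MCM7 onto DNA, a step called licensing. The kinases CDC7 with DBF4 and CDK, together with MCM10, CDC45 and the GINS complex, then turn these rings into active helicases, and polymerases with their sliding clamp copy the opened strands from nucleotides made by ribonucleotide reductase and thymidylate synthase. E2F transcription factors drive many of these genes at the entry into S phase in somatic cells, whereas ES cells spend much of a short cycle in S phase and keep many E2F targets expressed throughout.

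Satb1, the gene carried by the transgene, had a log2 level of 4.95 and 5.34 without DOX and 8.61, 8.79 and 8.68 with DOX. The induced arrays lay far above the uninduced arrays, as their labels state (log2 change 3.55 ± 0.15, standard error). Its adjusted p was 0.229 in limma over all genes and 0.00384 with the spread taken from genes with 5 distinct values, a setting explained below. The 8 ES cell genes checked had mean levels from 6.33 (Zfp42) to 11.17 (Dppa5a), and Pou5f1, Sox2 and Nanog lay between 9.75 and 9.97 on every array. None of the 8 passed in limma. Tdgf1, which encodes a co-receptor of Nodal, was the only one of them with separate groups, at 11.23 and 11.29 against 11.07, 11.09 and 11.01 (log2 change -0.21 ± 0.03, standard error; unadjusted p = 0.00645 and adjusted p = 0.770, limma). Among 17 fibroblast genes, which would mark the irradiated feeder cells named in the culture protocol, 8 had a mean log2 level above 5.06, the median of all genes, and 9 below it. The highest was Vim, at 8.28 without and 8.31 with DOX, and the collagen genes Col1a1 and Col1a2 were at 6.08 and 5.78 without and 6.07 and 5.79 with it. Lum, Postn and Fap were the lowest, at 2.40 to 3.48, and levels of different probe sets are not on 1 scale. No fibroblast gene had separate groups, and the mean of the list ran from 4.93 to 4.94 without and from 4.94 to 4.97 with DOX. The part of feeder RNA in the results below was not tested further than by a fit with this mean as a covariate. In such bulk RNA, fewer cells in S phase and less RNA of a gene per cell cannot be told apart.

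The promoter of Mcm7 is shown because Mcm7 was the only one of the 39 genes whose groups did not overlap in the probe set used. Its induced arrays lay wholly above (2.56% of the 39, against 1.65% of all genes). None of the 39 lay wholly below, against 3.08% of all genes. The promoters of Mcm3, Mcm5 and Mcm6 were added after a search for E2F strings, as windows of the same family that hold more than 1 of them. RefSeq promoter windows (assembly GRCm38.p6, 250 bases before to 50 bases after the start site) were held for 33 of the 39 genes. Gins1, Gins2, Gmnn, Mcm4, Pole and Prim2 had no window in the table used. The 4 strings TTTCCCGC, TTTGGCGC, TTTCGCGC and TTTGCCGC, which spell out the E2F core element, were searched on both strands, as was CCAAT, the box bound by NF-Y. Capitals mark E2F strings, and strings on opposite strands may overlap.

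Mcm3, chr1:20820263-20820562, strand -: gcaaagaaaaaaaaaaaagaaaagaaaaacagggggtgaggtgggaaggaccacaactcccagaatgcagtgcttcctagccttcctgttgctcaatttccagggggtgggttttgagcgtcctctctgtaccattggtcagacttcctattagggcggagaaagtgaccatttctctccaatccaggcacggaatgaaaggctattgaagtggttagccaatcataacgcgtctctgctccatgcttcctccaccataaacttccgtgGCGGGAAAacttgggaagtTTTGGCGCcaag
Mcm5, chr8:75109259-75109558, strand +: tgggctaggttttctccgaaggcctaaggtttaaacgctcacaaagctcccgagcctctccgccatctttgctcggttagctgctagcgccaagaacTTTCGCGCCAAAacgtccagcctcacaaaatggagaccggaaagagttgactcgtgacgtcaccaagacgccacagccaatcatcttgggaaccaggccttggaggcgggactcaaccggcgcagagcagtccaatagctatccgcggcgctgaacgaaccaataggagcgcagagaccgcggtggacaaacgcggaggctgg
Mcm6, chr1:128359656-128359955, strand -: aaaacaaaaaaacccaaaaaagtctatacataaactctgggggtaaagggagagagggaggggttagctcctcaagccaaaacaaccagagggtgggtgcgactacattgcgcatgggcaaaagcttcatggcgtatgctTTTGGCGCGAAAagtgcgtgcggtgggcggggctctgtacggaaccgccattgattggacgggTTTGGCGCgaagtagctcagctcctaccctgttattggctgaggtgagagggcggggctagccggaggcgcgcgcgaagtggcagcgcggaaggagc
Mcm7, chr5:138171834-138172133, strand -: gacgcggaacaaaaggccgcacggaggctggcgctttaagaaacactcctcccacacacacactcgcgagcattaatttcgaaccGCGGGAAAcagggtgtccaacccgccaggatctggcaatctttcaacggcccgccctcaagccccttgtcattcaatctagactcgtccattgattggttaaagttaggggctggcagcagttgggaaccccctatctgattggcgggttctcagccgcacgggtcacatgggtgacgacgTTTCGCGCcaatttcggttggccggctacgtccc

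Of the 33 genes with a window, 5 (15.2%) held at least 2 E2F strings, namely the 4 shown and Rfc3, against 29 of all 27025 genes with a window (0.107%) and 0.154% of protein-coding genes. In Mcm5 the 2 strings overlap on opposite strands and read as 1 block from position -153 to -142 before the start, and Mcm6 has a block of the same kind from -110 to -99. In Mcm7, of whose 2 windows the one shown holds the strings, they begin at -165 and at 17, and in Mcm3 at 20 and 39, inside the transcribed part. A CCAAT box in Mcm7 begins at 24 and shares its first base with the E2F string before it. Mcm2 had no E2F string in its window. Among the 33 genes with a window, 11 (33.3%) held an E2F string, against 2.6% of all genes and 3.29% of the 17492 protein-coding genes with one, and 20 (60.6%) held CCAAT, against 41.1% and 42.3%. Besides Mcm3, Mcm5, Mcm6 and Mcm7 these 11 were Orc1, Cdc6 and Cdt1 of licensing, the polymerase genes Pola1 and Pold1, the clamp loader gene Rfc3 and the ligase gene Lig1. No E2F string was found in the windows of the 4 nucleotide genes, 2 of which held CCAAT. E2F strings were also absent from the windows of the origin firing genes, the chromatin assembly genes and E2f1. Such absence says only that these letters are not there. The genes with a string had log2 changes on DOX from -0.05 to 0.09 with a median of 0.01, and the 22 without had changes from -0.07 to 0.05 with a median of -0.0049. Both ranges include 0, and promoters with and without E2F strings thus belonged to genes with small changes of either sign.

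The replication genes differed little between cells with and without DOX. Of the 39 genes, 18 had a higher mean in induced cells, 19 a lower mean, and 2, Orc1 and Tk1, a single value throughout, as had 15.1% of all genes. Their median log2 change was 0, as it was over all genes, and both medians fell on genes constant on all arrays. Over the genes above the median level it was -0.0038. The changes of the 39 genes ran from -0.07 (Orc6) to 0.09 (Mcm7), which is at most 1.07-fold. No gene passed an adjusted p of 0.05 in limma in either direction, where 0.01% of all genes passed as higher and 0.00502% as lower. In the probe sets used, none had an unadjusted p under 0.05, against 0.481% and 1.07% of all genes. No change exceeded 0.1 on the log2 scale, a size exceeded by 14.2% of all genes and by 10.7% of the genes above the median level. These limits rest on single arrays. Without uninduced array 2 the changes ran from -0.14 to 0.17 and 5 genes exceeded 0.1 (Mcm3, Mcm5, Cdc6, Rfc3 and Rfc4, with 16.7% of all genes), and without uninduced array 1 they ran from -0.12 to 0.10 and 2 did (Mcm4 and Rfc4, with 17.6%). Mcm7 exceeded it without induced array 2 or 3, and Mcm5 without induced array 3 as well. Both genes also exceeded it with the title number as a block (with 17% of all genes) and with the feeder mean as a covariate (with 16.9%). The block gives the same changes as leaving out induced array 3, the only array titled #3. The feeder mean was also highest on that array (4.97), so these settings are not separate checks. The mean over the 39 genes was 7.67 and 7.70 without DOX and 7.69, 7.69 and 7.66 with DOX, so the groups overlapped.

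**Figure D1:**
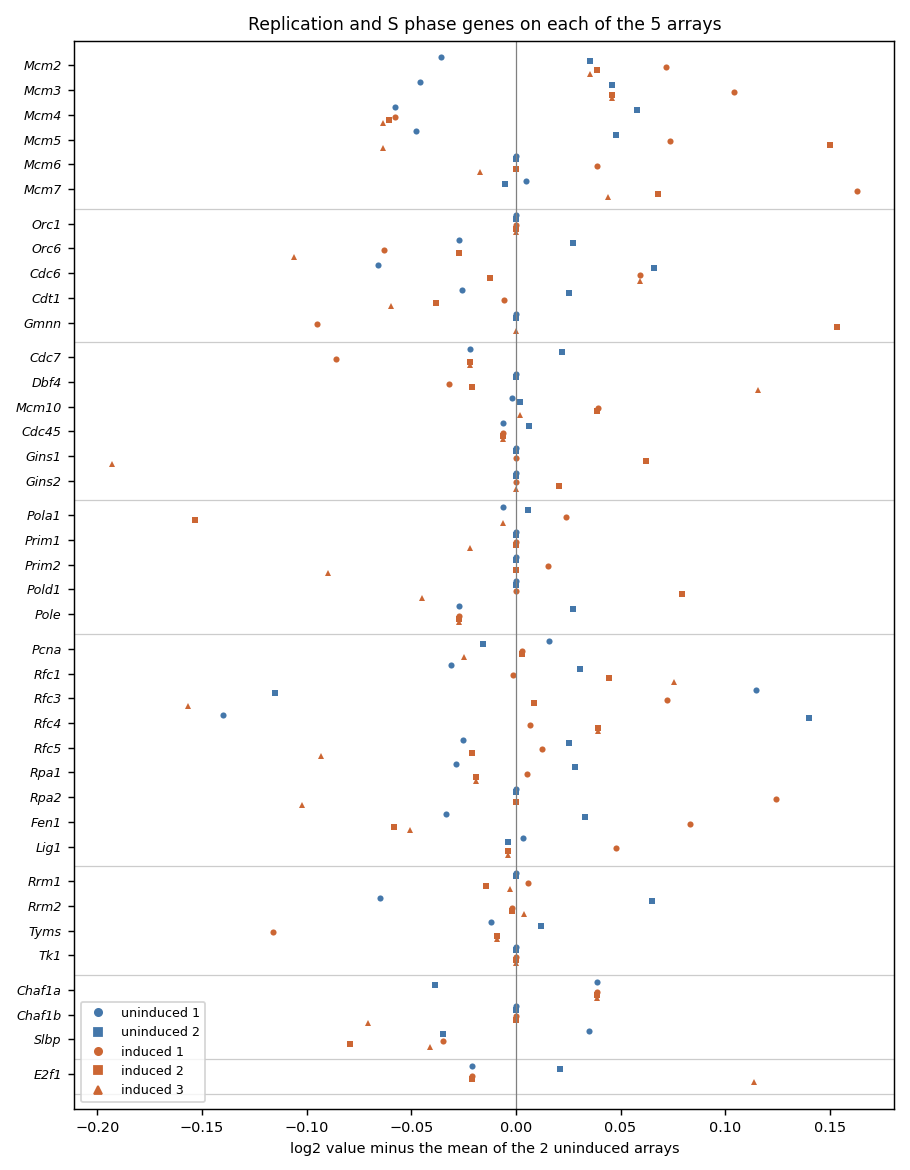
Log2 RMA value of each of the 39 genes on each array, minus the mean of the 2 uninduced arrays (x axis, log2 units; rows are genes, with lines between functional groups in the order MCM2-7, licensing, firing, polymerases and primase, clamp and lagging strand, nucleotide synthesis, chromatin assembly, E2F). Blue symbols are uninduced and orange symbols induced arrays, set apart vertically so that ties stay visible, and Mcm7 is the gene in which all induced arrays lie above both uninduced arrays.

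A p above the threshold does not show that levels were equal, so the interval of each difference was computed. The deposited values hold many exact ties between arrays, which shrink the estimated error. A tie within a group was found in 26 of the 39 genes, against 16039 of all 19938 genes. Of the 39, 7 had 5 distinct values, against 1800 of the 19938 (9.03%). A shared spread was therefore also used, in which each gene was shrunk towards the 1800 genes in the whole table with 5 distinct values. With it the 95% intervals of the 39 genes reached from -0.28 (Rfc3) at the lowest to 0.26 (Mcm5) at the highest. All 39 intervals lay inside a 1.5-fold change (0.58 on the log2 scale) with limma's own spread and with the shared one. With the shared spread this was also true of 19645 of the 19938 genes, so narrow intervals were the rule on these arrays.

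**Figure D2:**
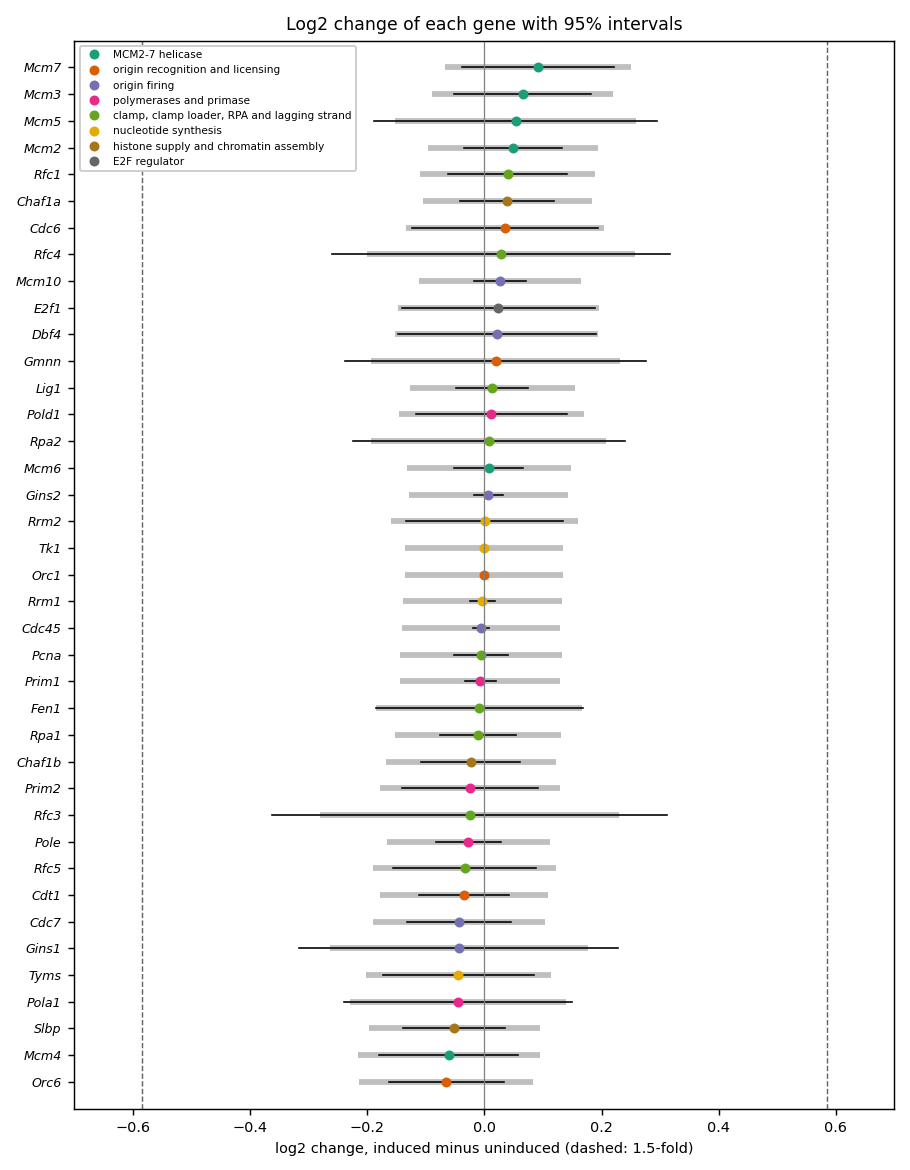
Log2 change of each gene (points, coloured by functional group; x axis, induced minus uninduced) with its 95% interval from limma (black lines) and with the shared spread (grey bars). Every interval spans 0 and lies between the dashed lines at 1.5-fold.

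The MCM2 to MCM7 proteins form the ring that unwinds DNA at the fork. Of their 6 genes, 5 had a higher mean in induced cells and Mcm4 a lower one, with a median log2 change of 0.05 and none past the test. Mcm7 had 9.27 and 9.26 without DOX and 9.43, 9.34 and 9.31 with DOX. All 3 induced arrays lay above both uninduced arrays, which no other of the 39 genes showed in either direction in the probe set used. Of all genes, 1.65% lay wholly above and 3.08% wholly below. For Mcm7 the log2 change was 0.09 ± 0.04 (standard error), with an interval of -0.07 to 0.25 with the shared spread. Its adjusted p was 0.770 (limma). The change of Mcm7 lay between 0.06 and 0.12 in the 9 other settings that can move it: centring, repeated quantile normalization, the block, the feeder covariate and each array left out. The block gave the same change as leaving out induced array 3 (0.12), and the feeder covariate gave 0.11. These 9 settings are therefore not all separate checks.

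Mcm3 had 8.76 and 8.85 without DOX and 8.91, 8.85 and 8.85 with it. Uninduced array 1 was the lowest and induced array 1 the highest, and the other 3 arrays were equal (log2 change 0.07 ± 0.04, standard error). Mcm2 was similar, at 9.01 and 9.08 against 9.12, 9.09 and 9.08. Mcm5 had 8.87 and 8.97 against 8.99, 9.07 and 8.86, where the induced arrays reached both above and below the uninduced ones. With single arrays left out, the change ran from 0.02 to 0.11 in Mcm3, from 0.01 to 0.08 in Mcm2 and from 0.0051 to 0.11 in Mcm5. Mcm6 was nearly constant, at 8.63 on both uninduced arrays and 8.66, 8.63 and 8.61 with DOX.

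Mcm4 had 7.77 and 7.89 on the uninduced arrays and 7.77 on each induced array, a log2 change of -0.06 ± 0.04 (standard error). Uninduced array 2 alone was high, and the groups overlapped. Without uninduced array 1, Mcm4 passed at -0.12 (adjusted p = 0.00343, limma), in a fit whose lone uninduced array is assumed to vary like the induced ones and in which 9.93% of all genes passed; it did not pass there with the shared spread. Without uninduced array 2 its change was -0.0028.

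**Figure D3:**
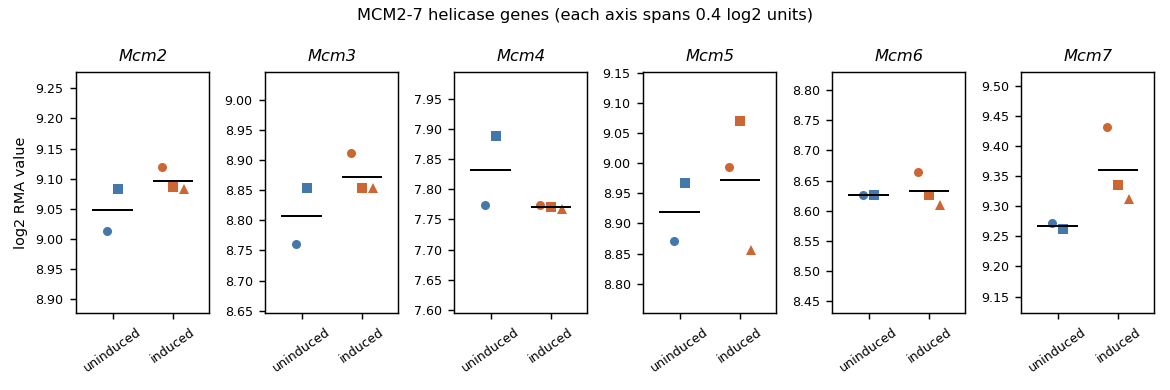
Log2 RMA level (y axis, log2 units; every panel spans 0.4) of the 6 MCM2-7 genes on the uninduced (blue) and induced (orange) arrays, with circles, squares and triangles for arrays 1, 2 and 3 and lines for group means. The groups are separate in Mcm7 and overlap or touch in the other 5 genes.

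Mcm7 also hosts 3 microRNA genes, Mir25, Mir93 and Mir106b, which lie within its bounds in RefSeq and are known to be processed from its introns. Each has a probe set of its own on the array, which reads the gene and not the mature arms. The main arms are shown to identify the microRNAs that this transcript also carries, with capitals for the seed (bases 2 to 8).

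mmu-miR-106b-5p: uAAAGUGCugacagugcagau
mmu-miR-93-5p: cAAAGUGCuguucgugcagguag
mmu-miR-25-3p: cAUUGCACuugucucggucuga

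The miR-106b and miR-93 arms share the seed AAAGUGC, while miR-25 has AUUGCAC. Mir106b had 5.31 and 5.27 on the uninduced arrays and 5.31 on each induced array. Mir93 had 4.67 on every array except induced array 1, at 4.60, and Mir25 had 5.82 on every array except induced array 1, at 5.69. Induced array 1, where Mcm7 was highest, was thus the array with the lowest level of Mir93 and Mir25. None of the 3 passed (log2 changes 0.02, -0.02 and -0.04 for Mir106b, Mir93 and Mir25, adjusted p of 0.769, 0.769 and 0.773 in limma over all probe sets with 1 symbol).

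No licensing gene passed the test. Orc6, a subunit of the origin recognition complex, had the lowest change of the 39 genes, with 8.15 and 8.20 without DOX and 8.11, 8.15 and 8.07 with it (log2 change -0.07 ± 0.03, standard error; adjusted p = 0.770, limma). Induced array 2 equalled uninduced array 1, so the groups touched. Orc1, the largest subunit, had 5.91 on all 5 arrays. The MCM loader Cdc6 had 7.51 and 7.64 against 7.64, 7.57 and 7.64, with every induced array between the uninduced ones, though 2 of them lay within 0.01 of uninduced array 2. Its partner Cdt1 had 7.82 and 7.87 against 7.84, 7.81 and 7.79. Gmnn, which encodes geminin, the inhibitor of CDT1, had 5.56 on both uninduced arrays and 5.46, 5.71 and 5.56 with DOX, which lay on both sides. The loader pair and its inhibitor therefore all had overlapping groups.

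The genes of origin firing had changes from -0.04 to 0.03. Cdc7, the kinase, had 5.73 and 5.78 against 5.67, 5.73 and 5.73, and its activator Dbf4 had 8.36 on both uninduced arrays against 8.33, 8.34 and 8.48. In each, 1 induced array stood apart from the other 2, low in Cdc7 and high in Dbf4. Mcm10, which helps to activate the helicase, had 7.56 on both uninduced arrays and 7.60, 7.60 and 7.56 with DOX. Cdc45, a helicase partner, was at 6.99 on every array but uninduced array 2, at 7.01. Of the GINS subunits, Gins1 had 7.68 on both uninduced arrays and 7.68, 7.74 and 7.49 with DOX, and Gins2 had 6.33 on every array but induced array 2, at 6.35. The spread of Gins1 came from its induced arrays alone.

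Of the 5 polymerase and primase genes, 4 had a lower mean and Pold1 a higher one, with a median log2 change of -0.02. Pola1, the catalytic subunit of the polymerase that starts new strands, had 7.37 and 7.38 without DOX and 7.40, 7.22 and 7.37 with DOX, where induced array 2 alone was low. Prim1, the primase subunit that makes RNA primers, was at 8.09 on every array but induced array 3, at 8.07. Prim2, the other primase subunit, had 6.38 on both uninduced arrays and 6.39, 6.38 and 6.29 with DOX. The low value of each primase gene was on induced array 3. Pold1, of the lagging strand polymerase, had 6.93 on both uninduced arrays against 6.93, 7.01 and 6.89, and Pole, of the leading strand polymerase, was at 7.54 on every array but uninduced array 2, at 7.59. Without uninduced array 1 the difference of Pole passed, at -0.05 (adjusted p = 0.00058, limma), resting on that single high array, and not with the shared spread.

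Pcna encodes the sliding clamp that holds polymerases on DNA. It had 9.96 and 9.93 without DOX and 9.95, 9.95 and 9.92 with DOX, a log2 change of -0.0062 with an interval of -0.14 to 0.13 with the shared spread. A second probe set of Pcna had -0.0036. The clamp loader genes Rfc3 and Rfc4 had the widest spread between uninduced arrays: Rfc3 had 6.95 and 6.72 there against 6.91, 6.85 and 6.68, and Rfc4 had 8.32 and 8.60 against 8.46, 8.50 and 8.50. In Rfc4 all induced values fell between the uninduced ones. Rfc1, the large loader subunit, had a change of 0.04 and Rfc5 one of -0.03.

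RPA coats single-stranded DNA. Rpa1 had a log2 change of -0.01, and Rpa2 had 7.64 on both uninduced arrays and 7.77, 7.64 and 7.54 with DOX, equal to them in 1 array and on either side in the others. Fen1, the nuclease that trims Okazaki fragments, had 6.99 and 7.06 against 7.11, 6.97 and 6.98, and Lig1, the ligase that joins them, 8.48 and 8.47 against 8.52, 8.47 and 8.47. In both, induced array 1 was the highest.

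Nucleotide genes had the smallest median absolute log2 change of the functional groups, 0.0020 against 0.03 over all genes, a description of 4 genes without a test. Their changes ran from -0.04 (Tyms) to 0.00029 (Rrm2). Rrm1, the large subunit of ribonucleotide reductase, had 8.74 on both uninduced arrays and 8.74, 8.72 and 8.73 with DOX. Rrm2, the small subunit, had 8.86 and 8.99 against 8.92, 8.92 and 8.93, with the induced arrays between the uninduced ones. It illustrates how much rests on single uninduced arrays: Rrm2 passed as lower without uninduced array 1 (-0.06, adjusted p = 0.0155, limma) and as higher without uninduced array 2 (0.07, adjusted p = 0.0154), and in neither fit with the shared spread. Tyms, thymidylate synthase, had 7.33 and 7.36 against 7.23, 7.34 and 7.34. Tk1, thymidine kinase, had 7.36 on all 5 arrays in the probe set used, and its other probe set had 6.65 and 6.67 against 6.78, 6.67 and 6.67.

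Chaf1a and Chaf1b, of the factor that places histones on new DNA, had changes of 0.04 and -0.02. Chaf1a was at 6.62 on every array but uninduced array 2, at 6.54, and it passed as higher without uninduced array 1 (0.08, adjusted p = 0.000338, limma), though not with the shared spread. Slbp, which binds the stem-loop of histone messages in S phase, had 7.91 and 7.84 against 7.84, 7.80 and 7.84 in the probe set used (log2 change -0.05 ± 0.03, standard error). Its second probe set had 7.83 and 7.79 against 7.76, 7.68 and 7.69, with all induced arrays below both uninduced arrays and a change of -0.10 ± 0.03 (standard error; adjusted p = 0.769, limma over probe sets). Both probe sets of Slbp were lower in mean, and neither passed. E2f1, the regulator of many of these genes, had 5.93 and 5.97 against 5.93, 5.93 and 6.06, with induced array 3 alone high.

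Single arrays stood out more than the groups did. Induced array 3 held the sole lowest value in 14 of the 39 genes and the sole highest in 3, while uninduced array 2 held the sole highest in 12 and the sole lowest in 2, and induced array 1 the sole highest in 11. The same counts were not made over all genes, so they are not shown to be particular to the 39. The median over the 39 genes of the spread within groups was 0.04 (pooled SD on the log2 scale), the same as over all genes, and the median absolute change was 0.03. Leaving out uninduced array 1 gave calls for 5 of the 39 genes (12.8%, with 9.93% of all genes called in that fit), Chaf1a higher and Mcm4, Cdc45, Pole and Rrm2 lower. Leaving out uninduced array 2 gave 1, Rrm2 higher (2.56%, against 9.93%), and leaving out any induced array gave 0. With the shared spread, none of these calls remained: 0 of the 39 genes passed whichever array was left out, in fits added after the data were seen, where 0 to 1 of all genes passed.

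Other genes of replication, from a list of 41 of which 40 were measured, gave no call in either direction (limma), with 14 higher and 19 lower in mean, 7 the same on all arrays, and a median of 0. Uhrf1, which recognises hemimethylated DNA behind the fork, had the smallest p, with 8.65 and 8.67 against 8.60 on each induced array (log2 change -0.06, unadjusted p = 0.00072 and adjusted p = 0.649, limma). Its 3 induced values were identical, which narrows its spread. Timeless, of the fork protection complex, had 6.32 on both uninduced arrays against 6.38, 6.36 and 6.36. Pole4, an accessory subunit of the leading strand polymerase, had 7.11 and 7.23 against 7.05, 6.84 and 6.98, and the histone chaperone Nasp had 8.46 and 8.37 against 8.34, 8.34 and 8.25. Beside these 4 genes, chosen for the smallest p, Pold3, a subunit of the lagging strand polymerase, also had separate groups, at 7.24 and 7.25 against 7.16, 7.19 and 6.95 (log2 change -0.15). The groups were thus separate in 5 of the 40 genes, with Timeless above (2.5%, against 1.65% of all genes) and the other 4 below (10%, against 3.08%). Of the genes above the median level, 1.57% lay wholly above and 4.98% wholly below. A change over 0.1 in size was seen in 7 of the 40 genes (17.5%, against 14.2% of all genes and 10.7% of those above the median level).

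Among 12 genes of the E2F family and its pocket proteins, 5 were higher and 7 lower in mean, with changes from -0.09 to 0.07 and no call. The activator E2f3 had a log2 change of -0.09, the repressors E2f8 and E2f7 had -0.09 and 0.03, and Rb1, which restrains E2F, had -0.04. The groups overlapped or touched in all 12. Among 9 genes of the replication checkpoint, also without a call, Atr, the kinase that senses stalled forks, had 6.58 and 6.50 against 6.40 on each induced array (log2 change -0.14, adjusted p = 0.770, limma). Hus1, of the checkpoint clamp, had -0.05, Rad1 of the same clamp -0.07, and Cdc25a, the phosphatase that activates CDK2, 0.07. Atr and Hus1 had all induced arrays below both uninduced arrays. These were 22.2% of the 9, against 3.08% of all genes and 4.98% of the genes above the median level. For comparison, 16 of 19 genes of the G2 and M phases had a lower mean, with a median of -0.03 and no call. This was 84.2% of them, against 45.3% of all genes and 52.9% of the genes above the median level. In 5 of the 19, Kif11, Kif23, Tpx2, Nusap1 and Hmmr, all induced arrays lay below both uninduced arrays (26.3%, against 3.08% and 4.98%). Kif23, a motor protein of cell division, had the largest difference of the list, with 8.12 and 7.97 against 7.73, 7.71 and 7.58 (log2 change -0.37 ± 0.08, standard error; adjusted p = 0.770, limma). Tdgf1, Pold3 and these genes of the G2 and M phases were named after their values were seen. The difference between these genes and the replication genes was not tested.

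**Figure D4:**
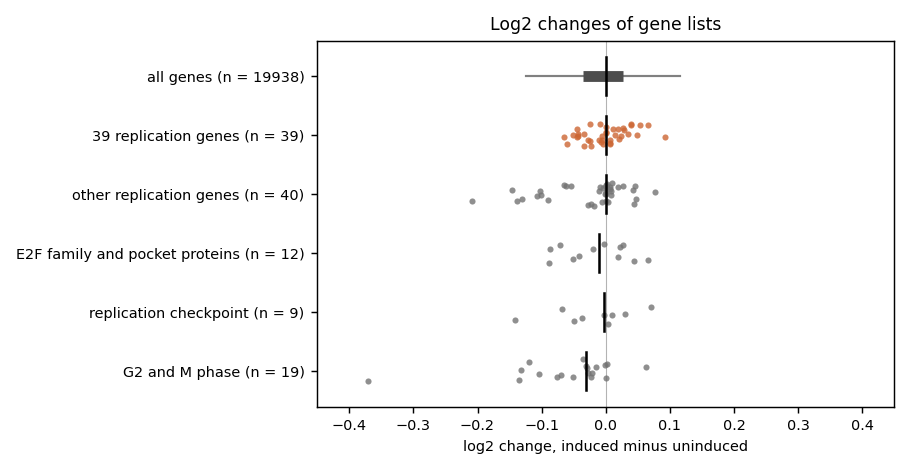
Log2 change (x axis, induced minus uninduced) of the 39 replication genes and 4 other lists, 1 point per gene, under the spread of all 19938 genes (thick bar from the 25th to the 75th percentile, thin line from the 5th to the 95th); short vertical lines are medians. The 39 genes lie between -0.07 and 0.09, and the largest decrease shown is that of Kif23 in the G2 and M phase list, at -0.37.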

How the data were processed

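Gene expression was measured on 5 arrays of biotin-labelled RNA. The deposited table holds log2 values of 35557 probe sets, made by the authors with RMA per the submitters' processing notes; the sources used here give no version, software, probe grouping or build. The log2 scale was read from the values (0.79 to 13.1). Normalization between arrays hides a shift of all transcripts in 1 group. Probe sets with 1 symbol in the platform annotation numbered 21789, of which 21698 matched RefSeq (GRCm38.p6) by gene identifier. The probe set with the highest mean stood for each of 19938 genes, 999 of which had several, with no filter on low values. Groups came from the sample titles. Genes were tested with limma 3.58.1 (lmFit, eBayes) run under R 4.3.3, and p-values were adjusted by Benjamini-Hochberg across the 19938 genes (threshold 0.05); the script was tested on simulated data. With the ties of the real arrays, limma's own spread made a far larger share of false calls there than the threshold allows, most of all with a lone uninduced array. The shared spread from genes with 5 distinct values made a smaller share, still above the threshold. The simulated spreads were drawn from this shared spread, which favours it, so the simulation cannot rank the settings on the real arrays. Calls that pass only with limma's own spread are given with both. An exact permutation test of 2 against 3 arrays cannot give a p under 0.1. The members and lists were chosen with earlier results of these data known. By rule, values were named for Satb1, Mcm2 to Mcm7, members with separate groups, the 3 largest member changes in each direction and up to 4 genes with the smallest p of each of 3 further lists (other replication genes, the E2F family, the checkpoint); other values describe the remaining members. Promoters were to be printed for up to 3 genes with separate groups; Mcm3, Mcm5 and Mcm6 were added after their strings were seen. The 15 alternatives were other summaries of probe sets, low-level filter, centring, quantile normalization, eBayes settings, the spread from genes with 5 distinct values, untied genes only, a block for the title number, a covariate for the feeder mean, a threshold of 0.01, and each array left out. Each array left out with the shared spread was added after the data were seen.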

Additional observations from a re-analysis of the deposited data

How the results depend on the processing

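No replication gene was called in either direction in any alternative that kept all 5 arrays, and the same held with any induced array left out. With single arrays left out, the count of higher genes ran from 0 to 1 and that of lower genes from 0 to 4, both extremes in fits with a lone uninduced array and limma's own spread. With the shared spread, added after the data were seen, both counts were 0 whichever array was left out. The median log2 change of the 39 genes, 0 as reported, was -0.025 over the 13 members without a tie in either group. Over all 3899 genes of that fit it was -0.018. With quantile normalization repeated, the median was 0.015 over the 39 genes and 0.0021 over all genes. In fits without 1 array, that of the 39 genes lay between -0.0085 and 0.0031. Mcm6 changed sign in such fits (-0.0085 to 0.019). The Satb1 change newly passed, at 3.55, with the shared spread of genes with 5 distinct values and in the untied fit, and lay between 3.35 and 3.75 without 1 array, passing with either uninduced array left out. With the shared spread it passed without uninduced array 2 (3.75) and without induced array 2 (3.50), and not in the other 3 such fits. The cause of these changes was not tested, apart from the smaller gene set of the untied fit.

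Nothing showed that the title number pairs arrays: deviations of same-numbered arrays from their group means correlated at -0.0063 and 0.0063. With the number as a replicate block there were 0 higher and 0 lower replication genes, a median of 0.0031 and a Satb1 change of 3.56. These changes equal those of the fit without induced array 3, the only array titled #3. The number of arrays and the ties between them limit the precision of every value.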
